A study of Mus musculus with 16 samples.

Results

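Fatty acid and triglyceride synthesis was followed through 40 genes, taken as the rows of the deposited count table whose mouse gene symbol is one of the 40 on a fixed list, and all 40 symbols were found among 54347 genes. Filtering on low counts left 36 of them among the 13150 genes that were tested. The cells were wt1-SAM brown adipocytes, an immortalized mouse line that carries the CRISPRa SAM system, in which an inactive Cas9 and activator proteins raise transcription wherever a single guide RNA (sgRNA) leads them. All 4 groups shared this activator system and the same differentiation with rosiglitazone, insulin, T3, dexamethasone, indomethacin and IBMX, and were harvested on day 7. On day 4 they had been reverse transfected with 250 ng of plasmid, either an empty vector or a pair of vectors with guides against the long noncoding RNA gene *Gm15551*. Each was then kept as control or stimulated for 24 h with 1 µM of the β-adrenergic agonist isoproterenol, so that the groups were empty vector control, empty vector with isoproterenol, sgRNA control and sgRNA with isoproterenol. Each group held 4 libraries of polyadenylated RNA, numbered 3, 4, 5 and 6. The line is a single immortalized one, the differentiation media held rosiglitazone (an agonist of the adipogenic receptor PPARγ), and the labels do not say whether the replicates were separate cultures, so the p-values measure only the spread between these libraries.

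Fatty acid synthesis starts in the cytosol from acetyl-CoA, which acetyl-CoA carboxylase turns into malonyl-CoA and fatty acid synthase builds into palmitate. Elongases and desaturases then remodel the chain, acyl-CoA synthetases activate it, and a relay of acyltransferases and lipin phosphatases attaches it to a glycerol backbone to give triglyceride, which is packed into lipid droplets. In brown fat this pathway runs beside lipolysis, and β-adrenergic activation is known to engage both fuel release and lipid resynthesis.

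Total counts per library lay between 9053521 and 16546187, of which a ribosomal RNA gene took 11.7% to 51.8%, leaving 5900607 to 12959314 counts for all other genes. Levels are given as CPM, which are counts scaled to the size of the library with TMM factors, and the values of a group always stand in the order of replicates 3, 4, 5 and 6. The targeted gene *Gm15551* was higher in the sgRNA library of 8 of 8 pairs, at 0.952 CPM against 2.97 CPM in control cells and 0.147 CPM against 1.56 CPM after isoproterenol (group means). The adipocyte label was met by *Fabp4*, *Lpl*, *Cidec* and *Adipoq*, of which *Fabp4* was the highest at 16126 CPM in empty vector control cells. Of the brown markers, *Ucp1*, the uncoupling protein of brown fat, had a mean of 0.35 CPM in empty vector and 0.548 CPM in sgRNA control cells and of 6.42 and 9.35 CPM after isoproterenol, and *Dio2* had 1 count in all.

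Per kilobase of merged exon, the levels of the 40 genes in empty vector control cells were led by *Scd1*, the Δ9 desaturase, at 1376 CPM per kb and *Gpd1*, which makes glycerol 3-phosphate from a glycolytic intermediate, at 735 CPM per kb. Then came *Hsd17b12* at 253, *Agpat2* at 249, *Acsl1* at 236 and *Scd2* at 206 CPM per kb. *Fasn* reached 24.3, *Acly* 22 and *Acaca* 6.76 CPM per kb, and the Δ5 and Δ6 desaturases *Fads1* and *Fads2* were at 7.49 and 8.57 CPM per kb. At the low end, *Elovl7*, *Mlxipl*, *Mogat1* and *Fitm1* had 96, 35, 21 and 8 counts over all 16 libraries and were not tested. *Mlxipl*, the carbohydrate-responsive regulator ChREBP, had 0 to 10 counts per library and none in 5 of them.

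**Figure D1:**
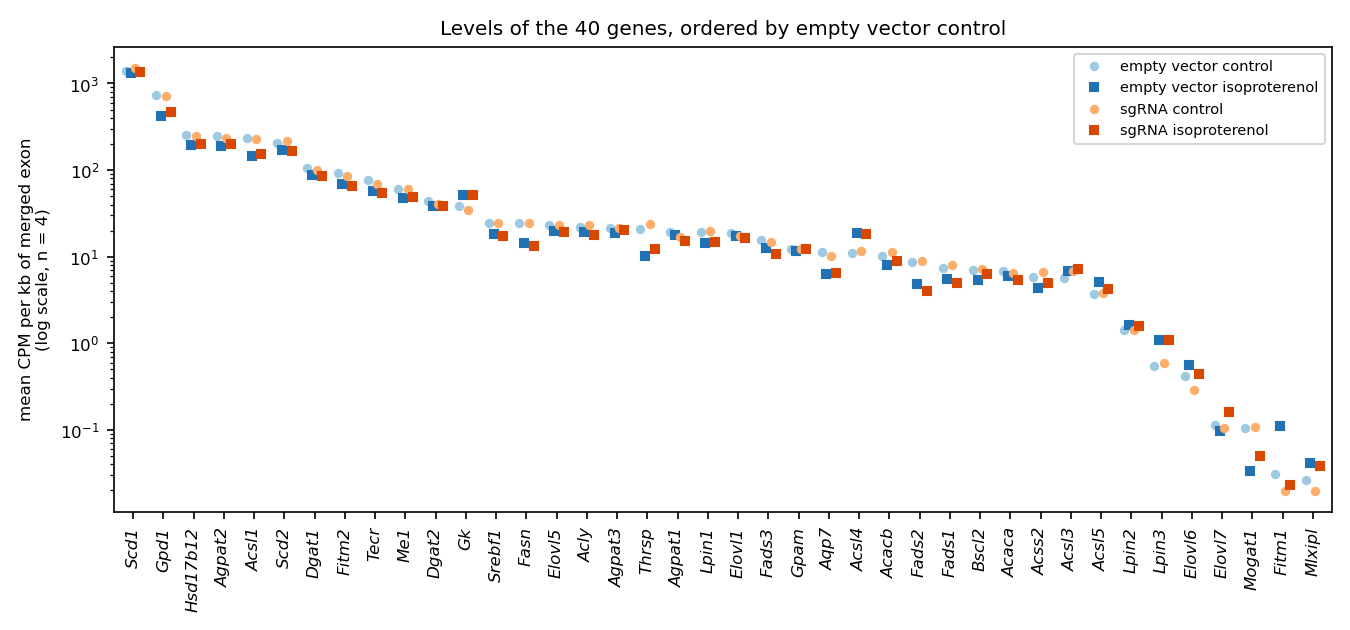
Mean level of each of the 40 genes (CPM per kb of merged exon, log scale, n = 4 libraries per group), ordered by the empty vector control; circles are control and squares isoproterenol groups. *Scd1* and *Gpd1* lie at the top and the 4 genes that were not tested at the bottom, and a mean of 0 would not be drawn.

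To ask how β-adrenergic stimulation changes the pathway, the isoproterenol effect was averaged over both plasmids. Of the 36 genes, 10 passed edgeR's quasi-likelihood test at a Benjamini-Hochberg adjusted p under 0.05, 7 lower (*Acss2*, *Scd2*, *Fads1*, *Fads2*, *Tecr*, *Acsl1* and *Aqp7*) and 3 higher (*Acsl4*, *Gk* and *Lpin3*). Over all 13150 genes 2.43% were called lower and 2.06% higher. With the replicate number as a block in the model (called blocked below), 28 of the 36 passed, 23 lower and 5 higher, when 10.4% of all genes were called lower and 10.9% higher. The 10 were among the 28, and *Acsl5* and *Elovl6* were the additional genes that rose. The 8 that did not pass in either fit were *Scd1*, *Elovl1*, *Acsl3*, *Gpam*, *Agpat1*, *Agpat3*, *Lpin2* and *Dgat2*.

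In 29 of 36 genes the fitted change was negative, and their median log2 fold change was −0.30 against 0.00 over all genes tested. Comparing the stimulated with the control library of the same plasmid and replicate number, 18 genes were lower in 8 of 8 pairs and 4 were higher in 8 of 8 pairs. Over all genes, 7.67% were lower and 8.16% higher in all 8 pairs. Only 4 of the 36, *Fads1*, *Fads2*, *Tecr* and *Acsl4*, had control and stimulated libraries that did not overlap over all 16, as did 1.46% of all genes. In bulk RNA, fewer cells of a type and less RNA per cell cannot be told apart.

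**Figure D2:**
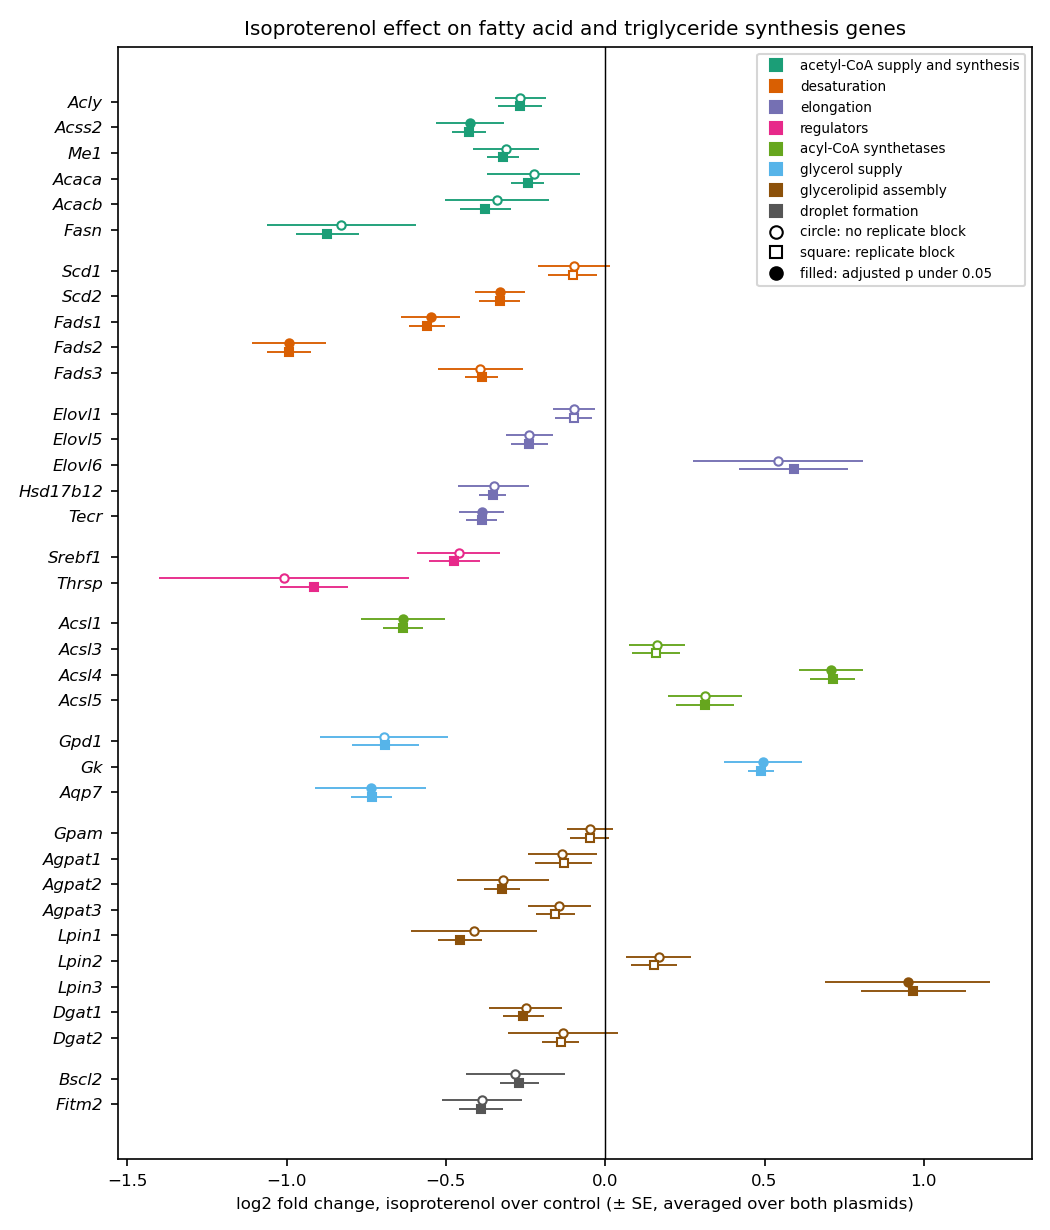
Log2 fold change (isoproterenol over control, averaged over both plasmids) of each of the 36 tested genes with its SE, in order of role; circles are the fit without and squares the fit with the replicate block, and filled symbols have an adjusted p under 0.05. Most symbols lie left of 0, with *Fads2*, *Thrsp* and *Fasn* farthest left and *Lpin3*, *Acsl4*, *Elovl6* and *Gk* farthest right.

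Among the 6 genes that supply acetyl-CoA and NADPH and build palmitate, 1 fell without the block and all 6 fell with it. *Fasn* had 192, 219, 388 and 266 CPM in empty vector control libraries and 89.2, 99.9, 273 and 160.4 CPM after isoproterenol. For *Fasn* in sgRNA cells the values were 260.4, 195, 366 and 261 CPM in control and 131, 95.2, 195 and 167 CPM in stimulated libraries. Every stimulated library was lower than its own control, and replicate 5 was the highest in each group. The control and stimulated ranges overlapped in empty vector cells and almost met in sgRNA cells, at 195.5 against 194.7 CPM. The log2 fold change of *Fasn*, the fatty acid synthase itself, was −0.83 (SE 0.23, adjusted p = 0.057 unblocked and 1.4e-05 blocked).

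*Acss2* had 50.4, 57.5, 59.7 and 67.4 CPM in empty vector control libraries and 32.9, 46.4, 48.5 and 48.3 CPM after isoproterenol. For *Acss2* in sgRNA cells the values were 52.3, 69.2, 82.6 and 68.1 CPM in control and 42.5, 47.4, 58.5 and 52.8 CPM in stimulated libraries. All 8 pairs were lower with isoproterenol, although the 2 ranges overlapped in sgRNA cells. For *Acss2*, which makes acetyl-CoA from acetate, the log2 fold change was −0.42 (SE 0.11, adjusted p = 0.035 unblocked and 4.1e-05 blocked). It lost its call in 10 of the 16 fits that left out 1 library, with an adjusted p of up to 0.0819 without sgRNA control replicate 5.

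*Acly* had 109, 131, 98.9 and 126 CPM in empty vector control libraries and 84.1, 97.8, 113 and 116 CPM after isoproterenol. For *Acly* in sgRNA cells the values were 112, 122, 129 and 122 CPM in control and 101, 87.3, 97.8 and 94.6 CPM in stimulated libraries. These values were lower with isoproterenol in 7 of 8 pairs, the exception being empty vector replicate 5. *Acly*, the ATP citrate lyase that releases acetyl-CoA from citrate, changed on the log2 scale by −0.27 (SE 0.08, adjusted p = 0.069 unblocked and 0.012 blocked).

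*Acaca* had 95, 97.7, 137 and 132 CPM in empty vector control libraries and 80.7, 76, 139 and 110.0 CPM after isoproterenol. For *Acaca* in sgRNA cells the values were 96.1, 95.3, 136 and 113 CPM in control and 82.1, 67.8, 116 and 101 CPM in stimulated libraries. Here too 7 of 8 pairs were lower and empty vector replicate 5 was not, and replicates 5 and 6 stood above 3 and 4 in all 4 groups. *Acaca*, an acetyl-CoA carboxylase, changed on the log2 scale by −0.22 (SE 0.15, adjusted p = 0.48 unblocked and 0.0034 blocked). Of its 31-base words, 33.5% also occur in other transcripts, mainly those of the pseudogene *Gm5182*, which had at most 14 counts in a library. For *Me1*, the malic enzyme that yields NADPH, that share was 36.9%, mainly with the pseudogene *Gm7049* at 2 to 19 counts per library, and its log2 fold change was −0.31 (blocked adjusted p = 0.00032). *Acacb*, the other carboxylase, changed by −0.34 on the log2 scale (blocked adjusted p = 0.0032).

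Of the 5 desaturase genes, 3 fell without the block and 4 with it. *Fads2* had 20.6, 29.2, 29.3 and 33.9 CPM in empty vector control libraries and 13, 16.5, 13.7 and 20.4 CPM after isoproterenol. For *Fads2* in sgRNA cells the values were 24.1, 32.4, 30.6 and 31.4 CPM in control and 12.5, 13.9, 11.5 and 14.7 CPM in stimulated libraries. Every stimulated library was below every control library. *Fads2*, the Δ6 desaturase at chr19:10062765-10101746, fell to 0.503 times its control level, a log2 change of −0.99 (SE 0.12, adjusted p = 8.5e-05 unblocked and 7.1e-08 blocked). It passed in all 16 fits that left out 1 library.

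*Fads1*, the Δ5 desaturase, lies near it on the other strand at chr19:10182888-10196877, with starts 81142 bases apart in the annotation. *Fads1* had 33.8, 37.6, 33 and 39.8 CPM in empty vector control libraries and 23.7, 25.2, 26.8 and 31.5 CPM after isoproterenol. For *Fads1* in sgRNA cells the values were 37.7, 37.3, 36.6 and 42.7 CPM in control and 21.2, 21.4, 22.6 and 31.6 CPM in stimulated libraries. Again no control library overlapped a stimulated one, and replicate 6 was the highest in each group. The log2 fold change of *Fads1* was −0.55 (SE 0.09, adjusted p = 0.0024 unblocked and 3.6e-06 blocked). *Fads3*, the third gene of this cluster on chromosome 19, was lower in 8 of 8 pairs and changed by −0.39 on the log2 scale, with adjusted p = 0.12 unblocked and 6e-05 blocked.

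The stearoyl-CoA desaturases, which introduce the first double bond and belong to one cluster on chromosome 19, were the most abundant pair. *Scd2* had 1049, 1239, 1023 and 1200.2 CPM in empty vector control libraries and 872, 887, 1030.2 and 966 CPM after isoproterenol. For *Scd2* in sgRNA cells the values were 1133, 1313, 1249.6 and 1089 CPM in control and 888, 806, 979 and 959.9 CPM in stimulated libraries. Empty vector replicate 5 was the exception to a lower value in 7 of 8 pairs. *Scd2* changed on the log2 scale by −0.33 (SE 0.08, adjusted p = 0.024 unblocked and 0.0017 blocked), lost its call in 6 of the 16 fits without 1 library (adjusted p up to 0.0563) and also when no gene was filtered for low counts (0.109). *Scd1* had 6049.6, 6438, 6456 and 7985 CPM in empty vector control libraries and 6668, 5908, 7452 and 6003 CPM after isoproterenol. For *Scd1* in sgRNA cells the values were 6358, 6685, 8978 and 7381 CPM in control and 6659, 5567, 8107 and 6182 CPM in stimulated libraries. *Scd1* was lower in 5 of 8 pairs, and the ranges of control and stimulated libraries overlapped for both plasmids. Its log2 fold change was −0.10 (SE 0.11, adjusted p = 0.72 unblocked and 0.38 blocked). The 2 genes shared 8.18% (*Scd1*) and 6.81% (*Scd2*) of their 31-base words with other transcripts, mainly each other's, so their counts are not fully separate. Counted per kilobase, *Scd1* made up 86.9% ± 1.25 (SD, n = 4) of the pair in empty vector control and 88.5% ± 0.929 (SD, n = 4) in stimulated empty vector cells, and 87.1% ± 1.8 (SD, n = 4) and 89% ± 1.05 (SD, n = 4) in sgRNA cells.

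**Figure D3:**
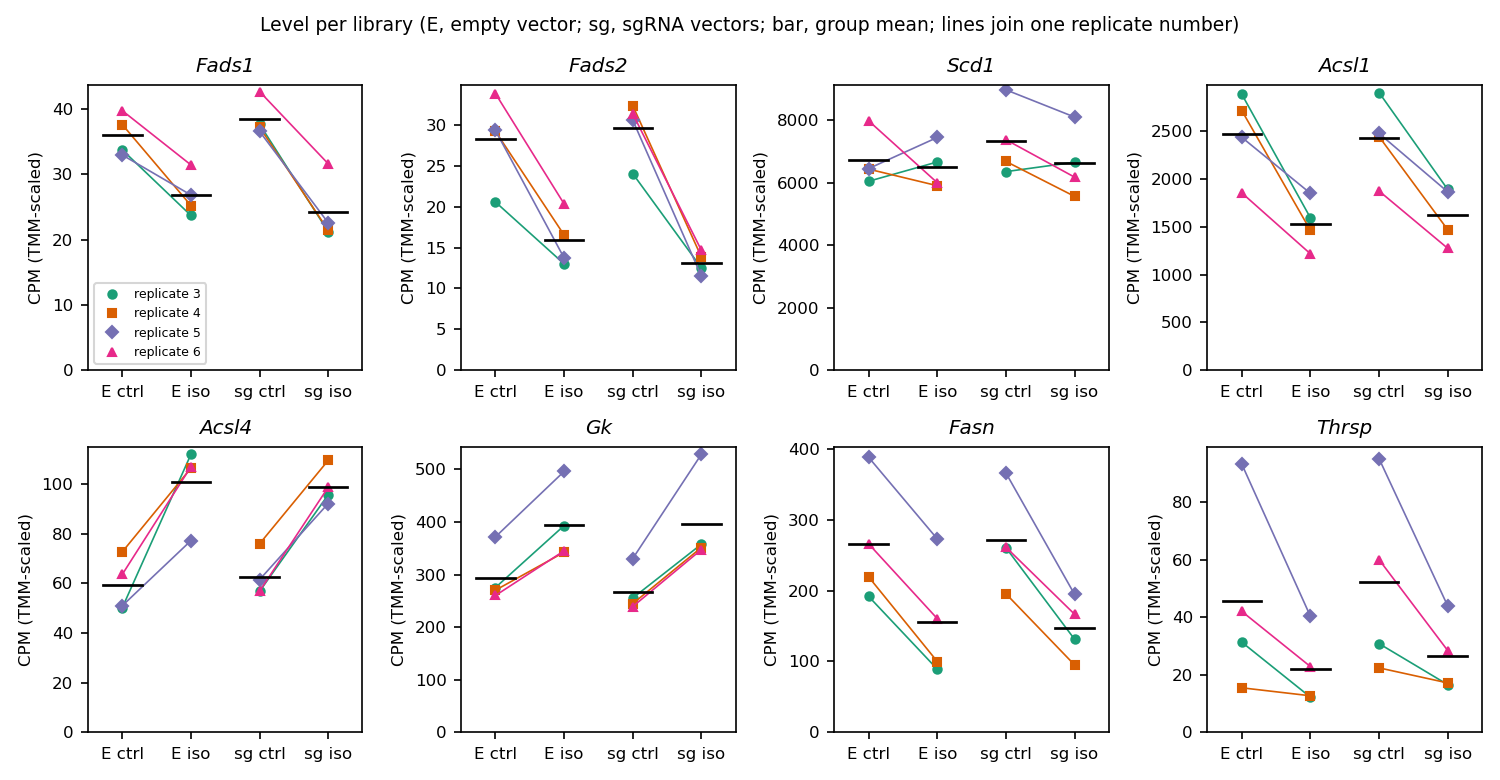
Level of 8 genes in each library (CPM, axes from 0), by group; symbols and colours mark the replicate number, thin lines join the control and stimulated library of the same plasmid and number, and bars are group means (n = 4). *Fads1*, *Fads2* and *Acsl4* show no overlap between control and stimulated libraries, whereas for *Fasn* and *Thrsp* the lines run in parallel from different heights.

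Elongation adds carbon pairs in the endoplasmic reticulum through a cycle that ends with the reductase encoded by *Tecr*, and of 5 tested genes 1 fell without the block, whereas 3 fell and 1 rose with it. *Tecr* had 179, 175, 171 and 140.4 CPM in empty vector control libraries and 128, 127, 137 and 107 CPM after isoproterenol. For *Tecr* in sgRNA cells the values were 167, 154, 140.0 and 146 CPM in control and 128, 117, 114 and 113 CPM in stimulated libraries. All 8 stimulated libraries were lower than all 8 control libraries. *Tecr* changed on the log2 scale by −0.39 (SE 0.07, adjusted p = 0.0042 unblocked and 3.8e-05 blocked), and it passed in all 16 fits without 1 library. *Hsd17b12*, the ketoacyl-CoA reductase of the same cycle, was lower in 8 of 8 pairs (−0.35, adjusted p = 0.09 unblocked and 2.8e-05 blocked). Of the elongases, *Elovl5* changed by −0.24 (blocked adjusted p = 0.0072) while the log2 fold change of *Elovl1*, which acts on very long chains, was −0.10 (blocked adjusted p = 0.24). *Elovl6*, which extends palmitate to stearate, went the other way by 0.54 (adjusted p = 0.31 unblocked and 0.022 blocked), at a level of 1.3 to 5.5 CPM and as few as 10 counts in a library.

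Of the regulators, *Srebf1* encodes SREBP1, the sterol-regulated activator of lipogenic genes. *Srebf1* had 130.4, 149, 163 and 109.9 CPM in empty vector control libraries and 71.5, 100.4, 144 and 94.5 CPM after isoproterenol. For *Srebf1* in sgRNA cells the values were 143, 125, 159 and 123 CPM in control and 90.2, 84.1, 121 and 95.5 CPM in stimulated libraries. Each stimulated library was lower than its paired control. The 2 ranges overlapped in empty vector cells and almost met in sgRNA cells, at 122.7 CPM in control against 120.9 CPM in stimulated libraries. The log2 fold change of *Srebf1* was −0.46 (SE 0.13, adjusted p = 0.055 unblocked and 0.00054 blocked). *Thrsp*, a lipogenic protein of adipose tissue that responds to thyroid hormone, ranged from 15.5 to 95.1 CPM in control and from 12.2 to 44.0 CPM in stimulated libraries. Replicates 5 and 6 averaged 1.34 log2 units above 3 and 4, the widest such gap of the 36 genes. *Thrsp* was lower in 8 of 8 pairs, a log2 change of −1.01 (SE 0.39) without the block (adjusted p = 0.18) and −0.91 (SE 0.11) with it (adjusted p = 2e-05).

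The 4 long-chain acyl-CoA synthetases, which activate fatty acids for esterification or oxidation, did not move together (1 fell and 1 rose without the block, 1 fell and 2 rose with it). *Acsl1* had 2887, 2716, 2436 and 1855 CPM in empty vector control libraries and 1594, 1463, 1850.2 and 1217 CPM after isoproterenol. For *Acsl1* in sgRNA cells the values were 2905, 2444, 2477 and 1874 CPM in control and 1892, 1470.0, 1866 and 1275 CPM in stimulated libraries. Stimulated libraries were lower in 8 of 8 pairs, and replicate 6 was the lowest in each group. *Acsl1*, the main synthetase of adipocytes, fell to 0.644 times its control level, a log2 change of −0.63 (SE 0.13, adjusted p = 0.0099 unblocked and 3.1e-06 blocked). *Acsl4*, which prefers arachidonate and similar polyunsaturated substrates, did the opposite. *Acsl4* had 50.3, 72.7, 51 and 63.7 CPM in empty vector control libraries and 112, 106, 77.2 and 107 CPM after isoproterenol. For *Acsl4* in sgRNA cells the values were 56.8, 76, 61.5 and 56.8 CPM in control and 95.7, 109.5, 92.2 and 98.7 CPM in stimulated libraries. Each stimulated library was above each control library. *Acsl4* rose 1.63-fold, a log2 change of 0.71 (SE 0.10, adjusted p = 0.00061 unblocked and 2.8e-06 blocked). *Acsl1* and *Acsl4* both passed in all 16 fits without 1 library. Since the use of read strand is not stated, genes on the other strand can share reads, and 9.91% of the exon bases of *Acsl1* overlap *Gm45244*, which had 104 to 260 counts per library against at least 12371 for *Acsl1*. Among the other genes described, 9.12% of the exon bases of *Acss2* overlap *Ggt7*, *Acss2os* and *Gss* on the other strand, and *Gss* had 293 to 777 counts per library against 255 to 1104 for *Acss2*, so the counts of *Acss2* are uncertain to that extent. For *Gpd1* the overlap was 13.0% with *Gm16537*, which had 1 to 13 counts per library. Overlaps above 5% of exon bases were also found for the tested genes *Bscl2* (10.8%, *AC129217.1* and *Gng3*), *Acsl5* (8.31%, *Zdhhc6*), *Fitm2* (5.72%, *2310001K24Rik*) and *Acsl3* (5.6%, *Utp14b* on the same strand).

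*Acsl5* was higher in 8 of 8 pairs (0.31 on the log2 scale, adjusted p = 0.15 unblocked and 0.022 blocked), and *Acsl3* was higher in 6 of 8 (0.16, blocked adjusted p = 0.15). Per kilobase, *Acsl1* accounted for 91.8% ± 2.38 (SD, n = 4) of the 4 synthetases in empty vector control and 82.4% ± 3.6 (SD, n = 4) in stimulated empty vector cells. In sgRNA cells the share was 91% ± 1.78 (SD, n = 4) and 83.5% ± 3.31 (SD, n = 4). *Acsl4* took 4.4% ± 1.19 (SD, n = 4) and 10.8% ± 2.67 (SD, n = 4) in empty vector cells, with the highest control library at 5.89% and the lowest stimulated one at 7.06%. *Acsl1* thus remained the most abundant synthetase in every library.

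The glycerol backbone can come from glucose through *Gpd1* or from free glycerol through *Gk*, the glycerol kinase, and *Aqp7* is the channel through which glycerol crosses the adipocyte membrane. *Gk* had 275, 270.4, 372 and 260.3 CPM in empty vector control libraries and 393, 343, 496 and 345 CPM after isoproterenol. For *Gk* in sgRNA cells the values were 255, 245, 331 and 239 CPM in control and 358, 352, 529 and 348 CPM in stimulated libraries. Replicate 5 was the highest in every group, and stimulated libraries were higher in 8 of 8 pairs. *Gk* rose 1.41-fold, a log2 change of 0.49 (SE 0.12, adjusted p = 0.03 unblocked and 5.2e-07 blocked). *Aqp7* had 31.5, 23.4, 45.2 and 27 CPM in empty vector control libraries and 16.1, 13, 24.9 and 16.8 CPM after isoproterenol. For *Aqp7* in sgRNA cells the values were 33.5, 20.4, 33.6 and 26.7 CPM in control and 20.1, 13, 24.6 and 16.6 CPM in stimulated libraries. All 8 pairs were lower, with overlapping ranges for both plasmids. *Aqp7* changed on the log2 scale by −0.74 (SE 0.18, adjusted p = 0.025 unblocked and 7.2e-07 blocked). *Gk* and *Aqp7* each lost their call in 6 of the 16 fits without 1 library (adjusted p up to 0.0667 and 0.0576). *Gpd1* was lower in 8 of 8 pairs, from a control range of 1178 to 2810.4 CPM to a stimulated range of 882 to 1762 CPM (log2 fold change −0.69, adjusted p = 0.063 unblocked and 0.00021 blocked).

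In glycerolipid assembly, 1 of 9 tested genes rose without the block, and with it 1 rose and 3 fell. *Gpam* had 93.3, 78.2, 71.2 and 84 CPM in empty vector control libraries and 70.6, 73.2, 85.1 and 82.6 CPM after isoproterenol. For *Gpam* in sgRNA cells the values were 90.5, 78.6, 84.1 and 76.8 CPM in control and 80.8, 71, 85.6 and 86.9 CPM in stimulated libraries. No direction held over the libraries of *Gpam*, the mitochondrial acyltransferase of the first step, which was lower in 5 of 8 pairs. Its log2 fold change was −0.05 (SE 0.07, adjusted p = 0.8 unblocked and 0.63 blocked). *Agpat2*, the main second-step acyltransferase of adipocytes, was lower in 8 of 8 pairs (−0.32, adjusted p = 0.26 unblocked and 0.00063 blocked), whereas *Agpat1* and *Agpat3* had −0.13 and −0.15 and passed in neither fit.

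The lipins, phosphatases that make diacylglycerol, differed among themselves. *Lpin1*, the most abundant, was lower in 8 of 8 pairs (−0.41, adjusted p = 0.29 unblocked and 0.0002 blocked). *Lpin3* had 2.11, 2.1, 0.779 and 3.01 CPM in empty vector control libraries and 3.87, 4.87, 3.56 and 4.04 CPM after isoproterenol. For *Lpin3* in sgRNA cells the values were 1.54, 2.13, 1.5 and 3.65 CPM in control and 3.38, 4.36, 2.4 and 6.07 CPM in stimulated libraries. *Lpin3* was higher in 8 of 8 pairs, but rested on 6 to 88 counts per library. Its log2 fold change was 0.95 (SE 0.26, adjusted p = 0.048 unblocked and 0.00057 blocked), and the call was lost in 12 of the 16 fits without 1 library (adjusted p up to 0.108). *Lpin2* had a log2 fold change of 0.17 and passed in neither fit. As a share of the 3 lipins per kilobase, *Lpin1* was at 90.1% ± 2.72 (SD, n = 4) in empty vector control and 82.8% ± 5.54 (SD, n = 4) in stimulated empty vector cells.

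The last step, from diacylglycerol to triglyceride, is shared by *Dgat1* and *Dgat2*. *Dgat1* had 321, 318, 391 and 262 CPM in empty vector control libraries and 227, 251, 365 and 237 CPM after isoproterenol. For *Dgat1* in sgRNA cells the values were 335, 286, 337 and 272 CPM in control and 247, 226, 316 and 253 CPM in stimulated libraries. All 8 pairs were lower, with overlapping ranges for both plasmids. *Dgat1* changed on the log2 scale by −0.25 (SE 0.11, adjusted p = 0.27 unblocked and 0.0092 blocked). *Dgat2* had 133, 121, 187 and 95.3 CPM in empty vector control libraries and 92.1, 118, 178 and 91.1 CPM after isoproterenol. For *Dgat2* in sgRNA cells the values were 123, 112, 165 and 104 CPM in control and 109, 105, 162 and 94.2 CPM in stimulated libraries. Replicate 5 stood above the rest in each group, and the stimulated library was lower in 8 of 8 pairs, most so in empty vector replicate 3. For *Dgat2* the log2 fold change was −0.13 (SE 0.17, adjusted p = 0.77 unblocked and 0.1 blocked). Replicate number took a share of 0.870 of its variance in log2 CPM, more than in any other of the 36 genes. Of the droplet genes, *Bscl2* (seipin) changed by −0.28 and *Fitm2* by −0.39 on the log2 scale, with blocked adjusted p of 0.0056 and 0.00087 and unblocked ones of 0.37 and 0.097.

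Sequence upstream of the annotated starts is shown for genes that passed the averaged isoproterenol test in both fits, because these genes moved apart under the same stimulus. Each is the 250 bases before a RefSeq start of GRCm38.p6, read 5′ to 3′ on the strand of the gene, and every such window that overlaps no annotated exon is given. The genes that fell are *Acsl1*, with windows at chr8:46470787-46471036 (a, plus strand) and chr8:46490716-46490965 (b, plus), and *Tecr* at chr8:83594492-83594741 (minus). Those that rose are *Acsl4* at chrX:142390536-142390785 (minus), *Gk* at chrX:85776820-85777069 (minus) and *Lpin3* at chr2:160880420-160880669 (plus). Capitals mark matches on either strand to CCAAT, to the sterol response element core TCACNCCAC or to the E-box CACGTG.
Acsl1 a: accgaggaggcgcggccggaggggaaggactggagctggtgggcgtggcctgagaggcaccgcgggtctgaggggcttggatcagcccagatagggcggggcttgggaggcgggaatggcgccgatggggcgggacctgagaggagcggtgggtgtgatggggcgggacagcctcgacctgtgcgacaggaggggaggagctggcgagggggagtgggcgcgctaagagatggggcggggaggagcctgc
Acsl1 b: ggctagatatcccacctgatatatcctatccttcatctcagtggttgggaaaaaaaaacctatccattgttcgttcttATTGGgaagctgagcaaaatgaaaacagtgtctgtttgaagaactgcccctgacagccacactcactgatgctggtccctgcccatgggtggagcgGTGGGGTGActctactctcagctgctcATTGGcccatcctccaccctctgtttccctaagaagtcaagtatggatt
Tecr: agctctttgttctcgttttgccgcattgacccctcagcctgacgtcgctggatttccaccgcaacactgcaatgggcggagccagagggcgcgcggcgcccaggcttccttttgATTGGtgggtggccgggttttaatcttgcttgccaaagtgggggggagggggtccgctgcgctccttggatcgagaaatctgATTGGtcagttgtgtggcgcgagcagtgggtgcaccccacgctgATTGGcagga
Acsl4: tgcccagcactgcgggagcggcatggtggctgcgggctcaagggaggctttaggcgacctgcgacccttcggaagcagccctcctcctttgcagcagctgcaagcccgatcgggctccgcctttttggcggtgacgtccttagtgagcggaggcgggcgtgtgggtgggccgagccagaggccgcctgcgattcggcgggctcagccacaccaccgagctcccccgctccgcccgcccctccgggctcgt
Gk: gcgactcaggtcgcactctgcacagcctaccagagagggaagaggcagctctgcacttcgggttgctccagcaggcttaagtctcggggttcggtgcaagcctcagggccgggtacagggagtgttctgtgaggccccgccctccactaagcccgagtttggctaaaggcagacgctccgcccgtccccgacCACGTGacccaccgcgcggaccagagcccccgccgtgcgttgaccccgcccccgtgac
Lpin3: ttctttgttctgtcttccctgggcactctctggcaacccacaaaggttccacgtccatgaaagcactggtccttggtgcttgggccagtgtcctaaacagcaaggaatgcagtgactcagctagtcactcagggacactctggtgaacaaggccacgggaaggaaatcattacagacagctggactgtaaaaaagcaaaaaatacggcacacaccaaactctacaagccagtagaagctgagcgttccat

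*Tecr* has 3 matches to CCAAT. The second window of *Acsl1* has 1 match to the sterol response element core, which begins 76 bases before the start, between a pair of CCAAT matches, and the first window has no match. *Gk* has an E-box 58 bases before its start, and *Acsl4* and *Lpin3* have none of the 3 motifs. Of the genes that passed whose windows reach into an exon and are not shown, *Acss2* has 1 CCAAT match and *Fads2* and *Aqp7* have none of the 3 motifs. Promoters of this kind were matched by symbol for 34 of the 40 genes, all but *Scd1*, *Scd2*, *Fads1*, *Gpd1*, *Dgat1* and *Dgat2*. CCAAT was found in 55.9% of these 34 genes and in 37.5% of 27025 genes with such a window. The sterol core was found in 5.88% against 1.22% (*Acsl1* and *Mlxipl*), and the E-box in 11.8% against 6.86% (*Elovl5*, *Gk*, *Lpin2* and *Mlxipl*). The cAMP response element TGACGTCA was in 0 of the 34 against 1.77%, its half-site TGACG, which that motif contains, in 20.6% against 19.8%, and the nuclear receptor half-site AGGTCA in 23.5% against 15.8%. A gene counted when any of its windows matched, and several of the 34 genes have more than a single window. The shares thus also depend on the number of windows, which was not adjusted for. The 27025 genes were not limited to those tested here. These matches are descriptions of letters, not of binding.

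Within each plasmid the isoproterenol response was tested on 4 libraries against 4. In empty vector cells 2 of the 36 genes passed, *Fads2* lower and *Acsl4* higher, when 0.913% of all genes did. In sgRNA cells 3 passed, *Fads1* and *Fads2* lower and *Acsl4* higher, beside 0.722% of all genes. With the replicate block 22 passed in each, 19 of them in both, against 9.57% of all genes in empty vector and 8.4% in sgRNA cells. *Fads2* changed by −0.82 (SE 0.17) in empty vector and −1.17 (SE 0.16) in sgRNA cells, and *Acsl4* by 0.76 and 0.66 (SE 0.14 for each).

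The responses measured with the 2 plasmids come from different libraries that share replicate numbers, and all 36 genes had the same sign in both, 29 lower and 7 higher. Across the 36 genes, which are not independent of each other, Pearson's r between the responses was 0.95. Neither value was computed over all genes, so this agreement cannot be called particular to the pathway. The difference between the responses, tested as the interaction of isoproterenol and sgRNA, passed for 0 of the 36 genes in edgeR without and with the block and in DESeq2, and for 0% of all genes with the block. At an unadjusted p under 0.05 there were 0 genes without the block (0.395% of all genes) and 2 with it (1.51%), *Fads1* and *Fads2*, named here after their values were seen. Without the block the fitted differences ran from −0.35 (*Fads2*, SE 0.23) to 0.22 (*Aqp7*, SE 0.35) on the log2 scale. Blocked, they ran from −0.36 (*Fads2*, SE 0.14) to 0.20 (*Aqp7*, SE 0.13), with *Fads1* at −0.25 (SE 0.11). A difference of this size was thus not resolved after adjustment in either fit.

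**Figure D4:**
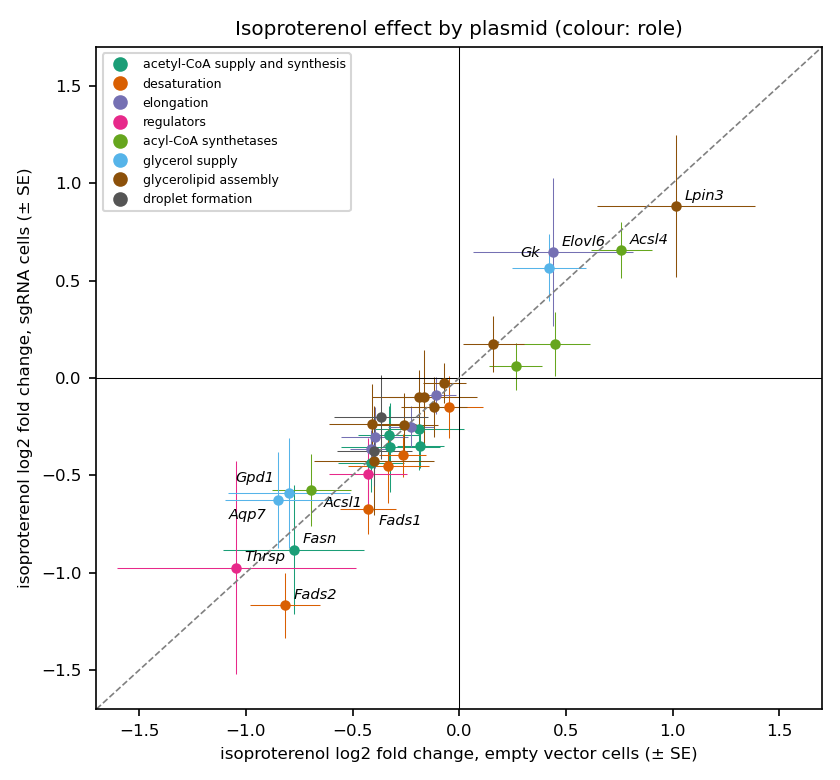
Isoproterenol log2 fold change in sgRNA cells (vertical) against that in empty vector cells (horizontal) for the 36 tested genes, each with its SE in both directions and coloured by role; the dashed line marks equal responses. All points lie towards the lower left or upper right corner and close to the line.

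The second question was whether activating *Gm15551* moved the pathway. Averaged over both treatments, 0 of the 36 genes passed in edgeR without the block (0% of all genes), 0 with it (0.586% of all genes) and 0 in DESeq2. Without the block the lowest adjusted p over all genes was 0.099 in edgeR, so the targeted gene *Gm15551* did not pass there either. That unblocked count therefore cannot show that the pathway was unmoved. At an unadjusted p under 0.05 there were 0 without the block (3.32% of all genes) and 7 with it (11.5%). The fitted sgRNA effects ran from −0.44 (*Elovl6*, SE 0.27) to 0.25 (*Thrsp*, SE 0.39), with a median of −0.02. The sgRNA log2 fold change of *Fasn* was −0.03 (SE 0.23), that of *Srebf1* −0.04 (SE 0.13), that of *Scd1* 0.08 (SE 0.11) and that of *Dgat2* −0.06 (SE 0.17), all without the block. *Acss2*, picked out after its values were seen, was the 1 gene of the 36 with the same sign in every sgRNA pair, higher in 8 of 8, as were 1.01% of all genes. With the block its log2 fold change was 0.19 (SE 0.05, adjusted p = 0.15). Within control cells and within stimulated cells 0 genes passed in either edgeR fit or in DESeq2, and at an adjusted p under 0.05 the block called 0.038% of all genes in control and 0.137% in stimulated cells. At an unadjusted p under 0.05 there were 1 and 0 of the 36 without the block (1.48% and 1.49% of all genes) and 3 and 4 with it (5.73% and 7.29%).

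Replicate number took a median share of 0.419 of the variance in log2 CPM of these genes (from 0.0524 to 0.870), isoproterenol 0.372 (0.0366 to 0.821) and the sgRNA 0.00848 (up to 0.206). With no effect, the 3 degrees of freedom of the replicate number would on average take 0.2 and the single one of each of the others 0.0667. Over all 13150 genes the medians were 0.468 for replicate number, 0.0679 for isoproterenol and 0.0238 for the sgRNA. *Thrsp*, *Fasn*, *Lpin1*, *Bscl2* and *Acaca* were higher in replicates 5 and 6 than in 3 and 4 by 1.34, 0.73, 0.65, 0.54 and 0.51 log2 units, and *Gpd1* was lower by 0.26. The isoproterenol response was in the same direction in replicates 3 and 4 as in 5 and 6 for 34 of the 36 genes, all but *Gpam* and *Agpat1*. Its median was −0.37 in replicates 3 and 4 and −0.20 in replicates 5 and 6 on the log2 scale, and its size was smaller in the latter for 27 of the 36 genes, a difference that was not tested. The counts of 34 and 27 were not taken over all genes, so neither can be read as particular to this pathway.

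**Figure D5:**
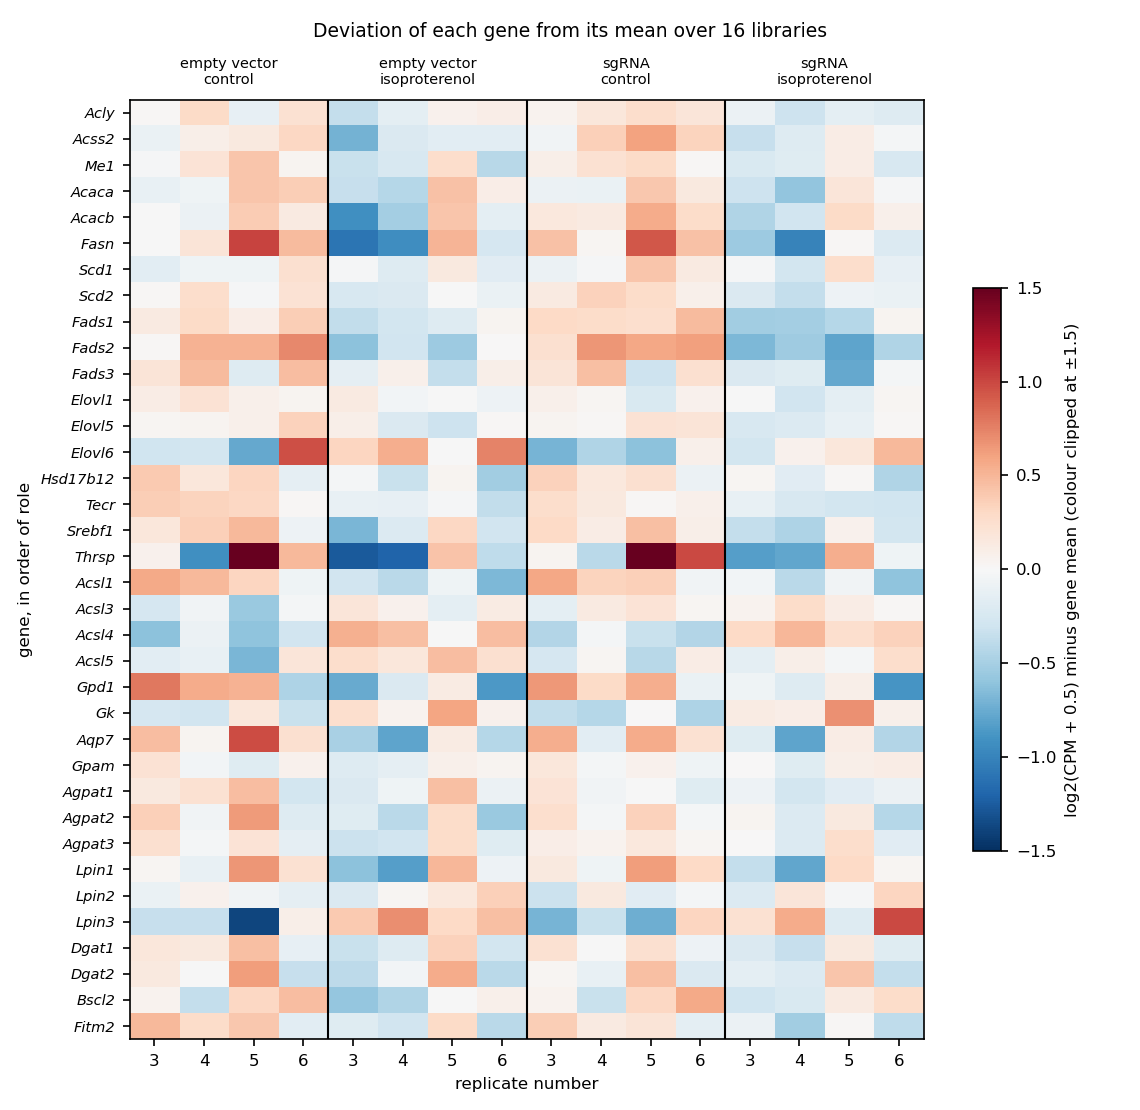
Log2(CPM + 0.5) of the 36 tested genes in each of the 16 libraries, as the deviation from the mean of the gene, in order of role and with colours clipped at ±1.5; columns are replicates 3 to 6 within each group. Stimulated groups are mostly blue and control groups mostly red, and columns of replicate 5 are redder than those of the other numbers for *Fasn*, *Thrsp*, *Lpin1* and *Dgat2*.

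Among 44 further genes of the pathway, 36 were tested, of which 5 fell and 0 rose in the averaged isoproterenol test in edgeR without the block. They were *Insig1*, the SREBP-retaining protein, from 426 to 223 mean CPM in empty vector cells (log2 fold change −0.93, adjusted p = 7.4e-06), *Acss3* (−1.18, 0.026), *Mid1ip1*, a partner of *Thrsp* that acts on acetyl-CoA carboxylase (−0.61, 0.04), *Slc25a1*, the citrate carrier (−0.60, 0.0086), and *Slc25a10* (−0.52, 0.018). With the block 18 fell and 2 rose, the latter *Pck1*, the glyceroneogenic enzyme (0.79, adjusted p = 4e-05), and *Elovl3* (0.27, adjusted p = 0.0033). Of all genes, 2.43% were called lower and 2.06% higher without the block, and 10.4% and 10.9% with it. *Srebf2*, *Scap* and *Mlx* passed in neither fit. For the sgRNA effect 1 of these 36 passed with the block, *Scd3* at 0.53 (adjusted p = 0.0021), and 0 without it, beside 0.586% and 0% of all genes.

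Markers of the cells themselves moved with isoproterenol as well. Of all 13150 genes, 2.43% were called lower and 2.06% higher without the block, and 10.4% and 10.9% with it. Of 9 tested adipocyte markers (10 listed), 3 fell without the block (*Adipoq*, *Cidec* and *Retn*) and 6 with it, and 0 rose in either fit. Their summed level ran from 16316 to 26734 CPM in empty vector control, 12518 to 21893 CPM in stimulated empty vector, 20030.0 to 25189 CPM in sgRNA control and 13456 to 23592 CPM in stimulated sgRNA libraries. Of 7 tested brown markers (8 listed) 2 rose without the block, *Ucp1* and *Ppargc1a*, and 4 with it, with summed levels of 196 to 407, 251 to 458, 225 to 425 and 332 to 571 CPM in the same order of groups. *Cd68*, the 1 of 6 leukocyte markers with enough counts, rose from a mean of 10.6 to 18.8 CPM in empty vector cells, while *Ptprc*, *Adgre1*, *Csf1r*, *Itgam* and *Lyz2* had 1 to 34 counts over all libraries. Of 10 preadipocyte or fibroblast markers, 5 were tested and 0 changed without the block (*Ly6a* rose with it), at summed levels of 31.8 to 154 CPM over all libraries. Endothelial and muscle lists summed to at most 3.15 and 3.82 CPM in any library, and *Myod1* and *Myf5* had no counts. With the sgRNA 0 markers passed without the block, and with it 2 did, *Cidea* higher (log2 fold change 1.05, adjusted p = 0.035) and *Ly6a* lower (−0.74, adjusted p = 0.0049), each in 8 of 8 pairs. The sgRNA effect was called for 0% of all genes without the block and 0.586% with it. The part of these shifts in the results for the synthesis genes was not tested.

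The library with the largest ribosomal RNA share was stimulated empty vector replicate 5 (51.8%), followed by control empty vector replicate 5 (47.3%) and stimulated empty vector replicate 3 (41.6%). Without each of these in turn, 18, 7 and 6 of the 36 genes passed the averaged isoproterenol test in place of 10, when 6.42%, 2.91% and 3.33% of all genes did in place of 4.49%. With the share as a covariate 16 passed, beside 6.62% of all genes. With the block, 29 passed without stimulated empty vector replicate 5, an alternative chosen after seeing the data, against 28 with it, at 22.5% and 21.3% of all genes. The ribosomal RNA share ran from 19.7% to 51.8% in empty vector libraries and from 11.7% to 28.7% in sgRNA libraries. The comparison of the plasmids was thus not balanced for it.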

How the data were processed

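Polyadenylated RNA of 16 libraries in 4 groups of 4 was analysed, with groups and replicate numbers taken from the sample titles. Per the methods and labels, the authors trimmed with cutadapt and ran salmon on the GENCODE M22 transcriptome (GRCm38), alone or joined with RNAcentral. They deposited estimated counts per gene, as whole numbers and not normalized. Tool versions and whether read strand was used are not given in the sources used here.

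Counts were tested in R 4.3.3 with edgeR 4.0.16 (limma 3.58.1). Genes were kept by filterByExpr (minimum count 10, minimum total 15). With TMM factors, the 4 group means were fitted to all 16 libraries (glmQLFit), and contrasts were tested two-sided by glmQLFTest and Benjamini-Hochberg adjustment over 13150 genes. A gene passed at an adjusted p under 0.05. CPM use the sum of the tested genes as library size and the TMM factor, and log2 CPM a prior count of 2. DESeq2 1.42.0, other scalings, no filter, a fold bound of 0.5 (log2), the ribosomal RNA share and single libraries left out were alternatives.

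The replicate numbers were taken to pair the libraries. Departures of log2 CPM from the mean of the group correlated above 0.1 in all 24 pairs of the same number (0.224 to 0.613, median 0.410), against a median of −0.215 in 72 pairs of different numbers (−0.512 to 0.516). Taking out the group mean pushes the values for different numbers down when those for the same number are positive. The highest value for different numbers also exceeded the median for the same number. Blocked values are therefore given beside the others.

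Values in every library are given for genes that passed the averaged isoproterenol test without the block. They are also given for *Fasn*, *Acaca*, *Acly*, *Srebf1*, *Mlxipl*, *Scd1*, *Scd2*, *Dgat1*, *Dgat2* and *Gpam*, except that of *Mlxipl* the range is given. The gene list, its roles and the tests were chosen with earlier results of these data known. Coordinates and lengths come from GENCODE M21 (GRCm38), an earlier release than that of the counts, and promoters from RefSeq (GRCm38.p6). Lengths for levels per kb are merged exons. Shared sequence was counted as words of 31 bases that occur in transcripts of another gene.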

Additional observations from a re-analysis of the deposited data

Results flagged for a closer look

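In a group of 4 libraries, a value was singled out when its gap to the next value, as a share of the range of the group, was above Dixon's critical value. Of 72 such groups (18 genes in 4 groups each), 5 held such a value, and chance gives about 1 in 20. *Acss2* was at 32.9 CPM in stimulated empty vector replicate 3, against 46.4 to 48.5 CPM in the other libraries of the group. *Fads1* was at 31.6 CPM in stimulated sgRNA replicate 6, against 21.2 to 22.6 CPM. *Acsl4* was at 77.2 CPM in stimulated empty vector replicate 5, against 106 to 112 CPM. *Gk* was at 372 CPM in control empty vector replicate 5, against 260 to 275 CPM, and at 529 CPM in stimulated sgRNA replicate 5, against 348 to 358 CPM. For *Fads1* and *Gk* the same replicate numbers were also the highest in the other groups.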

How the results depend on the processing

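The number of the 36 genes that passed the averaged isoproterenol test was 10, and the replicate block raised it to 28, DESeq2 to 17 and the ribosomal RNA share as covariate to 16, while a fold bound of 0.5 on the log2 scale left 6. Over all genes tested, 4.49% passed, and 21.3%, 7.4%, 6.62% and 2.65% did under these settings. In empty vector cells the count of 2 became 22 with the replicate block, 4 in DESeq2 and 4 with the covariate, and in sgRNA cells the count of 3 became 22 with the block and 5 in DESeq2, while DESeq2 called 2.15% and 1.75% of all genes for these plasmids and the covariate 1.58% in empty vector cells. With the block and without stimulated empty vector replicate 5, chosen after seeing the data, the 3 counts were 29, 23 and 24. The shares of all genes were 22.5%, 9.64% and 8.9% in the same order. Leaving out 1 library at a time gave 6 to 18 in the averaged test (18 without stimulated empty vector replicate 5), against 2.75% to 6.42% of all genes. Within empty vector cells it gave 0 to 4, against 0.43% to 1.52% of all genes. The count there was 0 without control replicate 5 or stimulated replicate 3 or 4 of the empty vector. Within sgRNA cells it was 1 to 3, against 0.351% to 0.784% of all genes. With all 34821 genes with a count kept, 13 passed the averaged test (1.62% of all). With other size factors or without the ribosomal RNA gene 10 passed it, beside 4.52% and 4.42% of all genes. The sgRNA effects and the interaction stayed at 0 in each of these settings. No setting reversed a called direction. *Fads1*, *Fads2*, *Tecr*, *Acsl1* and *Acsl4* passed in all 16 fits without 1 library, and the other 5 genes that passed each lost the call in some of them; *Fasn* gained one without replicate 5 of either stimulated group, *Srebf1* in 3 fits and *Acly* in 1. Apart from the gains in calls given in the report, the replicate block changed no call of the sgRNA effect or the interaction. Among the genes with values given in every library, leaving out 1 library moved 3 log2 fold changes by over 1.5 times. These lay near 0 and did not pass. *Dgat2* moved to between −0.26 and −0.03 (without stimulated and control empty vector replicate 5). *Scd1* moved to between −0.16 and −0.05 (without stimulated and control sgRNA replicate 5). *Gpam* moved to between −0.08 and −0.01 (without control empty vector replicates 5 and 3). The cause of these changes was not tested. The median shift of all genes was within 0.02 log2 units of 0 in each scaling. Depth limits *Lpin3* and *Elovl6*, and the 4 genes that were not tested.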
